A study of Mus musculus with 16 samples.

Results

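The cells described here are the organoid tumour cells that scored highest for 8 genes: Golga7b, Ifit1bl1, Kcne3, Timp3, Krt4, Slamf9, Krt6a and Fam129a. For each kept cell the score was the mean over these genes of ln(1 + 10000 × UMI / total UMI), where a UMI (unique molecular identifier) is 1 counted transcript molecule. The top 10% of kept cells of both libraries together, 419 of 4186, are called high-scoring cells below. Of these, 363 came from the minus TAM library and 56 from the plus TAM library.

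The study asked how KMT9, a histone methyltransferase made of KMT9alpha (gene N6amt1) and TRMT112, acts on growth and stemness of colorectal cancer. It profiled organoids grown from mouse colon tumours that had been induced with azoxymethane (AOM, a carcinogen) and dextran sulfate sodium (DSS, an agent that injures the colon lining). Both libraries were made from organoids at passage 14, and both deposited matrices are named for day 5, a time that the sample labels do not give. Minus TAM cells carried KMT9wt/wt and plus TAM cells carried KMT9ko/ko. TAM is not written out in the labels, which name no plus TAM sample with an intact gene, so the agent and the knockout cannot be told apart. Each group had 8 sample records but only 1 deposited library, so n = 1 per group: no difference below has a replicate check, no p-value is given, and all intervals are 95% intervals for counting error only.

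Keratins are the intermediate filament proteins of epithelia: Krt8, Krt18 and Krt19 are typical of single-layered epithelia such as the colon, whereas Krt4, Krt6a and Krt14 are typical of stratified epithelia such as oesophagus and skin. IFIT proteins, Isg15 and the Oas family are induced by interferon. In colon epithelium, Kcne3 is the subunit that keeps the Kcnq1 potassium channel open and so supports chloride secretion, and Wnt signalling maintains the crypt and its stem cells.

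After cells with fewer than 1000 genes, fewer than 2000 UMIs or more than 20% mitochondrial UMIs were left out, 2687 of 3618 minus TAM barcodes and 1499 of 2078 plus TAM barcodes were kept, with 70929447 and 37999642 UMIs. High-scoring cells held a median of 27699 UMIs against 24169.5 in the other minus TAM cells, and 27422.5 against 24184 in plus TAM. The median number of genes was 5150 against 4789.5 and 4811 against 4704. Mitochondrial UMIs made up a median of 2.77% against 2.90% and 2.58% against 2.88%. With the other cells weighted to the depth of the high-scoring ones, 68 of the 74 named genes that were past 1.5-fold in minus TAM still were, and 68 of 70 in plus TAM. N6amt1, the targeted gene, stood at 34.3 CPM (counts per 1000000 UMIs, summed over the cells) over all kept minus TAM cells and 6.05 CPM over all kept plus TAM cells. Within high-scoring cells it stood at 29.7 CPM in minus TAM and at 1.36 CPM in plus TAM, the latter from 2 UMIs (95% Poisson interval 0.165 to 4.91 CPM). The sources used here do not give which exons were removed, so 3′ counts need not read the deleted part.

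Some barcode sequences occurred in both libraries: 178 kept minus TAM cells and 334 kept plus TAM cells had a barcode that the other matrix also holds, among them 40 and 6 high-scoring cells. With all such cells left out and the top 10% chosen again, 317 of 2509 minus TAM cells (12.6%) and 50 of 1165 plus TAM cells (4.29%) were high-scoring. Results below are given for all kept cells. Values without shared barcodes stand beside the counts of genes higher or lower in high-scoring than in other cells, and beside some genes. Counts between the libraries are given with shared barcodes only.

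The promoters of 3 interferon-response genes are shown because 1 of the score genes, Ifit1bl1, belongs to that family and because Ifit1 and Isg15 are described below. Each sequence is the 250 bases before the transcription start, 5′ to 3′ on the gene's own strand, from RefSeq on GRCm38.p6, and capitals mark matches to the interferon-stimulated response element searched as GAAA, any 2 bases and GAAA on both strands, overlapping matches included. Ifit1bl1 lies at chr19:34601969-34602218 (minus strand) for the first of its listed starts, Ifit1 at chr19:34640639-34640888 (plus strand) and Isg15 at chr4:156200819-156201068 (minus strand).
Ifit1bl1: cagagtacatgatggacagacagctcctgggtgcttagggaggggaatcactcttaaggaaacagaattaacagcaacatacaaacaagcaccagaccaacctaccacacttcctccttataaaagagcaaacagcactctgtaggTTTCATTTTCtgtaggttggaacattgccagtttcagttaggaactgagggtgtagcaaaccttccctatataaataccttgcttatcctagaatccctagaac
Ifit1: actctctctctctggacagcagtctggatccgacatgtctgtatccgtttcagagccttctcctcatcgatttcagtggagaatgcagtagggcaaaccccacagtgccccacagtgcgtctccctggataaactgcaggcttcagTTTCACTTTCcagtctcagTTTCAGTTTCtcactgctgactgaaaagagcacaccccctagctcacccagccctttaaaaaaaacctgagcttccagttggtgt
Isg15: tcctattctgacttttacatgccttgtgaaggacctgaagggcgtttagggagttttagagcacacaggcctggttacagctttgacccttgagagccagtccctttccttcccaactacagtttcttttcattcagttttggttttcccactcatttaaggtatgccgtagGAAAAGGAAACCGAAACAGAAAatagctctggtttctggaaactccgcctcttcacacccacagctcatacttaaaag
The first 2 carried matches on the strand opposite to the gene (TTTC reads), and Isg15 carried 3 overlapping matches on its own strand. In windows of 300 bases (250 before to 50 after a start), the motif was found in 1079 of 27025 genes of the RefSeq table (3.993%). Of the 6 score genes matched in that table, 1 held it (Ifit1bl1); Krt4 and Krt6a were not matched. Among the 28 matched genes of the interferon and IFIT lists, 17 held it (60.71%), and those lists were drawn up as known interferon targets. A match is a description of the letters and not a measured binding site.

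The share of high-scoring cells was 13.5% of kept minus TAM cells (exact binomial interval 12.2% to 14.9%) and 3.74% of kept plus TAM cells (2.83% to 4.82%). The score ran continuously across the cut, so the class is the upper end of a range and not a separate group. The lowest score inside was 0.586834 and the highest outside was 0.586796, against a median of 0.250 over all kept cells and a highest score of 1.15. Within 10% of the cut lay 115 cells inside and 157 outside. In the 100 cells just inside the cut Krt4 stood at 1540 CPM and in the 100 just outside at 1369 CPM. For Kcne3 the values were 19.0 and 22.3 CPM, and for Krt6a 157 and 183 CPM. Ifit1bl1 stood at 24.4 CPM just inside and 13 CPM just outside, Golga7b at 48.9 and 32.9 CPM, and Timp3 at 65.3 and 49.6 CPM. When the UMIs of every cell were split at random into 2 parts and the choice repeated on 1 of them, 341 of the 419 cells (81.4%) were chosen again. The UMIs of that part had also entered the first choice, so this share is partly built in. Agreement between the 2 parts was not tested.

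**Figure D1:**
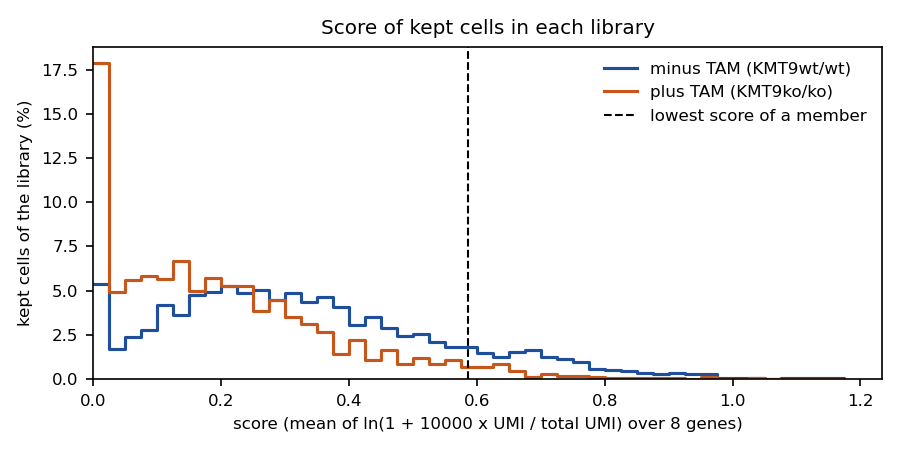
Distribution of the score (x axis, mean ln(1 + 10000 × UMI / total UMI) over the 8 genes) as a percentage of the kept cells of each library (y axis), with the lowest high-scoring cell as a dashed line. No gap separates the 363 minus TAM and 56 plus TAM cells right of the line from the rest.

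The 8 score genes set the choice, so their levels are a description and are not evidence of it. Krt4, a keratin of mucosal stratified epithelium (chr15:101918535-101924735, mm10, minus strand), was the highest of them. It stood at 2006 CPM in high-scoring and 583 CPM in other minus TAM cells, and at 1907 and 353 CPM in plus TAM. Krt6a, a keratin that wounded and stressed stratified epithelium makes (chr15:101689910-101694307, minus strand), stood at 214 against 21.3 CPM in minus TAM and at 755 against 62.9 CPM in plus TAM. Both keratins were thus several times higher in the chosen cells of both libraries, and Krt6a was highest in the plus TAM ones. Timp3, a matrix-bound inhibitor of metalloproteinases (chr10:86300372-86349506, plus strand), stood at 90.8 against 12.8 CPM and 91.7 against 8.38 CPM. Golga7b, an accessory protein of palmitoyltransferases (chr19:42247574-42270348, plus strand), stood at 56.2 against 8.39 CPM and 46.2 against 5.04 CPM. Ifit1bl1, an IFIT family member (chr19:34592891-34601956, minus strand), stood at 64.0 against 9.08 CPM and 21.7 against 6.30 CPM. These 3 genes were low on the scale of Krt4 in every class.

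Kcne3, Slamf9 and Fam129a stood at lower levels in plus TAM than in minus TAM in both classes of cells. Kcne3 (chr7:100176502-100184869, plus strand) stood at 30.4 CPM in high-scoring and 8.79 CPM in other minus TAM cells, but at 7.47 CPM, from 11 UMIs, and 2.27 CPM in plus TAM. Slamf9, a SLAM family receptor best known from immune cells (chr1:172475358-172478575, plus strand), stood at 82.3 against 32.8 CPM in minus TAM and at 8.15 CPM, from 12 UMIs, against 6.24 CPM in plus TAM. Fam129a, also called Niban1 and known from the cell stress response (chr1:151571186-151721939, plus strand), stood at 33.1 against 18.0 CPM and at 8.83 CPM, from 13 UMIs, against 1.75 CPM. Over all kept cells the same genes were lower in plus TAM: Kcne3 stood at 12.3 CPM in minus and 2.47 CPM in plus TAM, Slamf9 at 40.8 and 6.32 CPM, and Fam129a at 20.5 and 2.03 CPM. Krt4 and Krt6a made up most of the score of the chosen cells in both libraries, 49.7% and 15.9% in minus TAM and 51.0% and 33.5% in plus TAM. Slamf9 made up 9.52% in minus TAM and 0.840% in plus TAM, and Kcne3 3.44% and 0.691%. The label Kcne3 Slamf9 Krt4 thus named 1 gene that made up much of this score, Krt4, and 2 that made up little of it in plus TAM. A share of the score is not a share of the choice: Krt4 was also found in 90.7% of other minus TAM and 76.0% of other plus TAM cells. With the top 10% chosen without Krt6a, 19 of the 56 high-scoring plus TAM cells were chosen again, against 39 without Krt4. Without Kcne3 or without Slamf9 all 56 were. In minus TAM 310 of 363 were chosen again without Krt6a and 282 without Krt4. A high-scoring cell had UMIs of a median of 5 score genes in minus TAM and 3 in plus TAM, against 2 and 1 in the other cells.

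To see whether each gene stood higher in cells chosen without it, the score was rebuilt from the other 7 genes. In minus TAM all 8 genes were higher in the top cells, from a log2 ratio of 0.40 for Ifit1bl1 and 0.47 for Fam129a to 1.62 for Timp3 and 2.18 for Krt6a. In plus TAM the ratio was 2.46 for Krt6a, 1.95 for Golga7b, 1.65 for Fam129a, 1.51 for Krt4, 1.47 for Kcne3 and 1.42 for Timp3, but −1.53 for Ifit1bl1 and −0.14 for Slamf9 (interval −1.07 to 0.67). In minus TAM that of Kcne3 was 0.92 and that of Slamf9 0.96. The ratio was thus above 0 in both libraries for 6 of the 8 genes, and for Ifit1bl1 and Slamf9 in minus TAM alone, a difference that was not tested. The plus TAM ratios of Kcne3 and Fam129a rest on 6.35 and 5.76 CPM in the top cells (intervals 0.42 to 2.39 and 0.58 to 2.59). The high-scoring class was defined with earlier results of these data known. Ratios above 0 are therefore a description and no independent test that the genes go together. Across cells, the highest correlation between 2 score genes was that of Krt4 with Krt6a (r = 0.386 over 2687 minus TAM cells and 0.378 over 1499 plus TAM cells). The next in minus TAM was Krt4 with Slamf9, at 0.241. These correlations share each cell's depth and are given as a description.

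**Figure D2:**
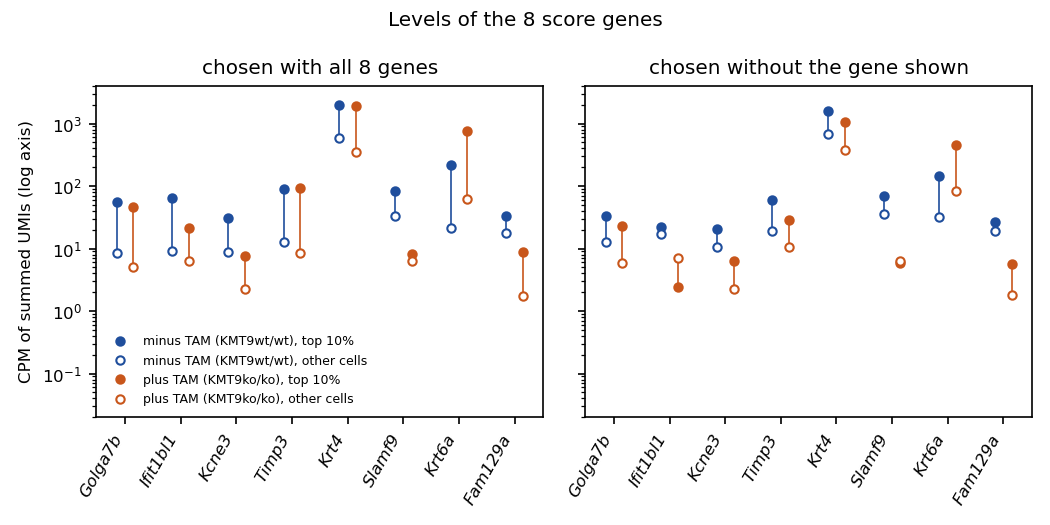
Levels of the 8 score genes (y axis, CPM of summed UMIs, log axis) in high-scoring cells (filled) and other kept cells (open) of each library, chosen with all 8 genes (left) or without the gene shown (right). Krt4 and Krt6a stand apart in both panels and libraries, while Slamf9 in plus TAM lies at nearly the same level in both classes.

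For all other genes the comparison was high-scoring against other kept cells within a library, over genes with 10 CPM or more in that library, and a gene was counted at a ratio of 1.5-fold or more. In minus TAM 226 of 7494 genes were higher (3.02%) and 394 lower (5.26%). In plus TAM 370 of 7533 were higher (4.91%) and 1010 lower (13.4%). The cells were chosen on the same contrast, so nothing is read from these shares. The median log2 ratio of all genes was −0.00 in minus TAM and −0.11 in plus TAM; with ratios set relative to that median, 501 plus TAM genes were higher and 761 lower, which put 39.7% of the counted genes on the higher side against 26.8% before. In both libraries at once, 118 of 7116 genes were higher (1.66%) and 233 lower (3.27%), and 6 (0.0843%) were higher in 1 library and lower in the other. Without shared barcodes 243 genes were higher and 414 lower in minus TAM, and 393 and 1010 in plus TAM.

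The 20 genes of largest ratio included several of stratified and barrier epithelium. Krt14, the keratin of basal cells, had the largest ratio in minus TAM: it stood at 294 CPM in high-scoring and 35.1 CPM in other cells (8.39-fold, log2 3.07, interval 2.99 to 3.15), and at 548 and 118 CPM in plus TAM (4.64-fold). Lor, which encodes loricrin of the cornified envelope, stood at 639 against 268 CPM and 1728 against 452 CPM. Tgm1, the transglutaminase that cross-links that envelope, stood at 173 against 64.2 CPM and 131 against 58.2 CPM. Each of these was at least 2-fold higher in the high-scoring cells of both libraries. Serpinb7, a protease inhibitor of epidermis, stood at 235 against 91.0 CPM and 403 against 160 CPM. Gabrp, the pi subunit of GABA-A receptors, stood at 92.3 against 20.8 CPM and 200 against 47.8 CPM. Mal and Mall encode small membrane proteins of apical sorting, and Mal stood at 84.4 against 24.6 CPM and 164 against 65.0 CPM.

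By list, 3 of 5 measured stratified keratins were counted as higher in minus TAM and 6 of 8 in plus TAM, none as lower, with median log2 ratios of 0.61 and 1.88 beside −0.00 and −0.11 for all genes. Median over cells of the list's mean ln(1 + 10000 × UMI / total UMI) was 0.0794 against 0.0261 in minus TAM and 0.188 against 0.0585 in plus TAM. Krt17 stood at 25.5 against 11.1 CPM and 45.5 against 10.2 CPM. Krt90 stood at 17.7 against 11.6 CPM in minus TAM and 207 against 82.9 CPM in plus TAM, and its minus TAM direction turned under several other choices of cells. Of the cornified envelope and barrier genes, 5 of 9 were higher in minus TAM (median 0.87) and 8 of 12 in plus TAM, with 1 lower (median 1.18). Sprr2a3, a small proline-rich envelope protein, stood at 191 against 90.4 CPM and 319 against 214 CPM. Its reads may be divided among the near-identical Sprr2a genes, as may those of Krt6a and Krt6b.

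Among the simple keratins, Krt19 stood at 6982 against 3768 CPM in minus TAM and 8300 against 4664 CPM in plus TAM, and Krt7 at 3459 against 1831 CPM and 3900 against 2035.0 CPM. Of the simple keratins 2 of 5 (median 0.33) and 3 of 6 (median 0.59) were 1.5-fold or more higher. Trp63, the basal cell factor of squamous epithelium, had no UMI in any kept cell of either library. With 3 counts as the limit this allows 0.0423 CPM in minus TAM and 0.0789 CPM in plus TAM. Krt5, the usual partner keratin of Krt14, was low in level but higher in high-scoring cells, at 2.10 against 0.656 CPM and 4.76 against 0.630 CPM. Of the basal and squamous transcription factors 1 of 5 was higher in each library (Grhl3, at 36.2 against 23.8 CPM and 32.6 against 16.8 CPM). The intestinal factor Cdx2 stood at 106 against 90.2 CPM and 28.5 against 25 CPM. Of the intestinal identity factors 2 of 15 were higher in minus TAM (Isx and Elf3, median 0.00), and 2 of 14 were lower in plus TAM (median −0.05).

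Interferon-response genes were among the lists with higher members. Isg15, a ubiquitin-like protein, stood at 401 against 160 CPM and 338 against 172 CPM in plus TAM. Oasl2 stood at 51.6 against 19.8 CPM and 48.9 against 24.6 CPM, and Ifi203, a DNA-sensing family member, at 53.3 against 17.8 CPM and 36.0 against 20.8 CPM. These 3 were past 1.5-fold in both libraries. Of the interferon list, 9 of 20 measured genes were higher and none lower in minus TAM (median 0.56), and 7 of 23 were higher and 2 lower in plus TAM (median 0.27). The summed level of the list ran the other way, 4891 against 5019 CPM and 4032 against 4689 CPM. Its most abundant gene, Ifitm3, stood at 3248 against 3979 CPM and 2175 against 3284 CPM. Ifit1 stood at 91.5 against 36.3 CPM in minus TAM but 83.6 against 71.5 CPM in plus TAM. Ifit3 stood at 38.3 against 13.4 CPM in minus TAM and, in plus TAM, at 3.40 CPM from 5 UMIs against 19.0 CPM. Ifit1bl1 is a near copy of other IFIT genes, so reads could be divided among them. With cells chosen without Ifit1bl1, the minus TAM log2 ratios of Ifit1 and Ifit3 were 0.45 and 0.21 in place of 1.33 and 1.51, while Isg15 (1.05) and Oasl2 (1.16) stayed past 1.5-fold. MHC class I genes, which interferon also induces, had 2 of 10 higher in minus TAM (Tap1 and Tap2, median 0.30) and 1 higher and 1 lower of 9 in plus TAM (median 0.02).

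Genes of the fetal-like, injury-related state of colon epithelium and of YAP, a transcriptional coactivator, were higher in 10 of 21 cases in minus TAM (median 0.54) and in 10 of 22 in plus TAM, with 1 lower (median 0.51). Ly6a, a marker of that state, stood at 2778 against 1555 CPM and 2935 against 1837 CPM. Anxa3 stood at 985 against 477 CPM and 712 against 415 CPM, and Cav2, a caveolin, at 102 against 44.3 CPM and 101 against 69.3 CPM. Clu stood at 133 against 70.5 CPM in minus TAM and 286 against 329 CPM in plus TAM. Without shared barcodes it stood at 257 against 220 CPM in plus TAM, so its direction there turned with the choice of cells. S100 proteins and annexins bind calcium, and 7 of 15 were higher and 1 lower in minus TAM (median 0.55), 6 of 16 and 1 in plus TAM (median 0.48). Anxa8 stood at 156 against 46.0 CPM and 200 against 63.7 CPM. The fetal-like list shares Anxa1, Anxa3, Anxa5 and S100a6 with the S100 and annexin list, and both rest partly on the same genes.

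The lower side was led by Vim, Reg4, metallothioneins and Wnt antagonists. Vim, the intermediate filament protein vimentin, stood at 6.29 CPM in high-scoring and 194 CPM in other minus TAM cells (30.9-fold lower), and at 9.51 against 349 CPM in plus TAM. Reg4, a secreted lectin of deep crypt and endocrine cells, stood at 2.18 against 50.4 CPM in minus TAM. In plus TAM no Reg4 UMI was found in high-scoring cells, which puts it at least 15.3-fold below the 31.1 CPM of other cells when 3 counts are taken as the limit. Mt4 and Mt3, metal-binding proteins, stood at 7.43 against 165 CPM and 7.25 against 151 CPM in minus TAM, and at 8.15 against 560 CPM and 5.44 against 454 CPM in plus TAM. Vim, Mt4 and Mt3 were over 15-fold lower in both libraries, and Reg4 was so in minus TAM. Prox1, a homeobox factor and Wnt target in colon tumours, stood at 5.94 against 40.2 CPM and 9.51 against 41.4 CPM. Cdkn1c, a cell cycle inhibitor, stood at 4.63 against 38.4 CPM and 7.47 against 59.1 CPM. Car1, a carbonic anhydrase of colonocytes, stood at 8.30 against 61.8 CPM and 50.3 against 261 CPM, and its direction in plus TAM turned with the choice of cells. Without shared barcodes it stood there at 44.9 against 12.7 CPM, a log2 ratio of 1.83 in place of −2.38. Most of that change lay in the other cells, so the lower Car1 in plus TAM rests on cells of shared barcodes.

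Several Wnt pathway genes were lower. Wif1, a secreted Wnt inhibitor, stood at 15.4 against 315 CPM in minus TAM (20.5-fold lower, log2 −4.36, interval −4.58 to −4.14) and 37.4 against 498 CPM in plus TAM. Nkd1, an inhibitor that Wnt signalling itself induces, stood at 100 against 679 CPM and 77.5 against 739 CPM. The ligand Wnt6 stood at 87.7 against 300 CPM and 69.3 against 308 CPM. Of the Wnt targets and antagonists 7 of 15 were lower and 1 higher in minus TAM (median −0.55), and 10 of 16 were lower in plus TAM (median −0.99). The one higher gene was Ccnd1, cyclin D1, at 930 against 481 CPM in minus TAM and 391 against 280 CPM in plus TAM. Axin2, the general feedback target of the pathway, stood at 88.8 against 104 CPM and 90.4 against 116 CPM, under 1.5-fold. Of the intestinal stem cell genes 4 of 17 were lower in minus TAM (median −0.22), and 5 of 15 lower and 2 higher in plus TAM (median −0.35). Smoc2 was the lowest of the named ones, at 47.3 against 176 CPM and 21.1 against 110 CPM. Lgr5, the defining stem cell receptor, stood at 5.50 against 4.74 CPM in minus TAM and had 1 UMI in the plus TAM high-scoring cells.

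**Figure D3:**
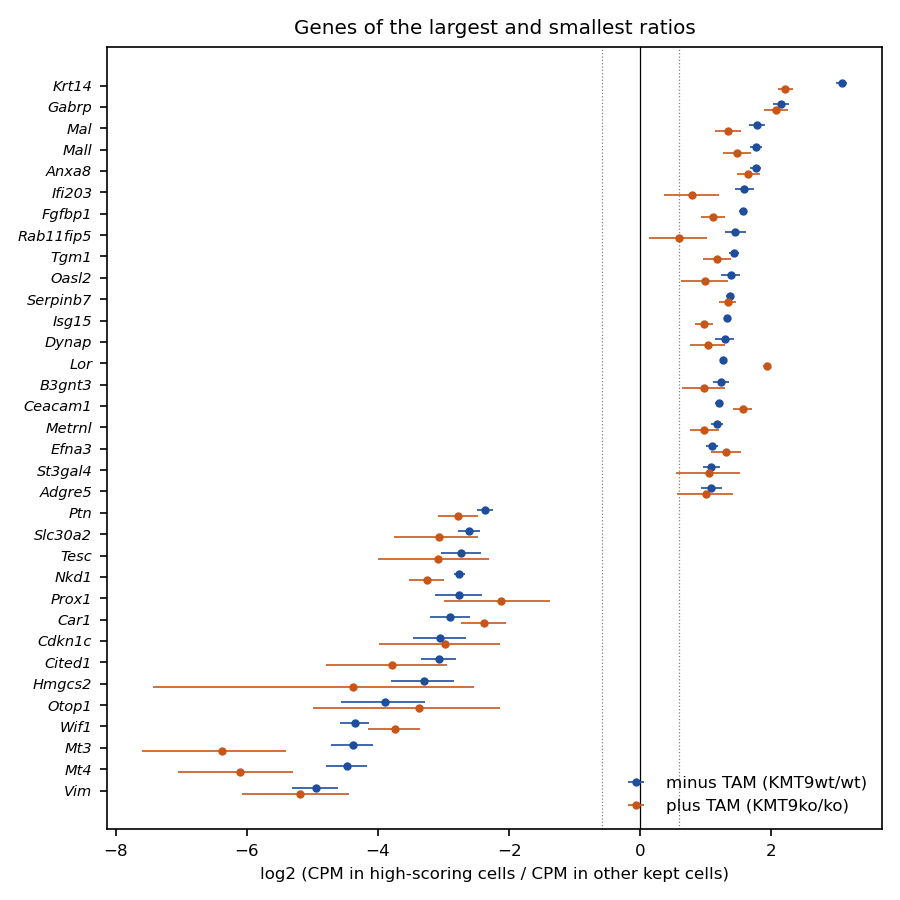
Log2 ratio of CPM in high-scoring over other kept cells (x axis) for the 20 genes of largest and 14 of the 15 of smallest ratio in minus TAM (y axis), with 95% counting intervals in both libraries; dotted lines mark 1.5-fold. Reg4 is left out because no UMI was found in the plus TAM high-scoring cells. The 34 genes shown lie on the same side of 0 in minus TAM and plus TAM.

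Fewer cell cycle genes were lower in minus TAM than in plus TAM, a difference that was not tested. Of the G2 and M phase genes 15 of 35 were lower and none higher in minus TAM (median −0.52), and 23 of 26 lower in plus TAM (median −1.47). Mki67, the proliferation antigen, stood at 13.6 against 24.6 CPM in minus TAM and at 3.40 CPM from 5 UMIs against 15.1 CPM in plus TAM. Of the S phase genes 0 of 29 passed 1.5-fold in minus TAM (median −0.11), and 20 of 23 were lower in plus TAM (median −0.97). In minus TAM the typical cell did not follow the sums: the median over cells was 0.189 against 0.177 for S phase and 0.120 against 0.119 for G2 and M phase. The number of high-scoring cells with low S and G2/M levels was 95 of 363 in minus TAM and 46 of 56 in plus TAM, beside 747 of 2687 and 875 of 1499 among all kept cells. Within cells of that kind in plus TAM the ratios of Mki67, Mcm5 and Mcm6 had the opposite sign (log2 0.08, 1.14 and 0.33). Those cells were picked for low sums of cell cycle genes, Mki67 among them, and few UMIs were left. Nothing is read from these signs.

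Relatives and partners of Kcne3, Slamf9, Timp3, Fam129a and Golga7b were counted in the same way. Among all measured genes 3.02% were higher and 5.26% lower in minus TAM, and 4.91% and 13.4% in plus TAM. Of the Kcne3 partners and chloride secretion genes, 2 of 8 were lower in minus TAM and 2 of 8 higher in plus TAM. Kcnq1, the channel that Kcne3 modulates, stood at 43.6 against 47.2 CPM and 72.0 against 44.2 CPM. Cftr, the apical chloride channel, stood at 2.10 against 3.93 CPM in minus TAM and had 2 UMIs in the plus TAM cells. No gene of the SLAM family other than Slamf9 reached 10 CPM. Of TIMPs and metalloproteinases 0 of 6 in minus TAM, and 1 higher and 1 lower of 7 in plus TAM, passed 1.5-fold; Timp2 stood at 260 against 181 CPM and 148 against 162 CPM. Of the Niban family and ATF4 stress genes 2 of 18 were higher and 1 lower in minus TAM and 0 of 18 passed in plus TAM; Fam129b, the nearest relative of Fam129a, stood at 129 against 82.4 CPM and 141 against 106 CPM. No palmitoyltransferase or GOLGA7 family gene passed 1.5-fold in either library (0 of 9).

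Genes outside the score varied with it over its whole range and not only at the cut. Cells of each library were ranked by score into 10 equal bins, of which the lowest in minus TAM had a median of 17163 UMIs and the highest 27988, so depth moved with the score too and its part was not tested. In minus TAM Wif1 ran from 874 CPM in the lowest to 12.5 CPM in the highest bin, and Nkd1 from 1317 to 83.1 CPM. Krt14 ran from 13.6 to 333 CPM, Lor from 112 to 674 CPM and Isg15 from 60.9 to 423 CPM. In plus TAM Wif1 ran from 1002 to 75.1 CPM, Krt14 from 24.7 to 377 CPM and Isg15 from 71.7 to 281 CPM. There 263 cells had no UMI of any score gene, and bins 1 and 2 both had a median score of 0. The border between these bins thus falls among tied cells, and the lowest plus TAM bin is only a part of them. By correlation with the score across cells, over 5552 genes, the genes most like it were Krt19 (r = 0.61 in minus TAM and 0.50 in plus TAM), Anxa3 (0.61 and 0.38), Ccnd1 (0.59 and 0.34), Ly6a (0.59 and 0.44) and Krt7 (0.58 and 0.55). Tgm1, S100a11, Lgals4, Anxa8 and 2200002D01Rik completed the 10 highest, with 0.51 to 0.57 in minus TAM. The cells share library and depth, and these values are a description.

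**Figure D4:**
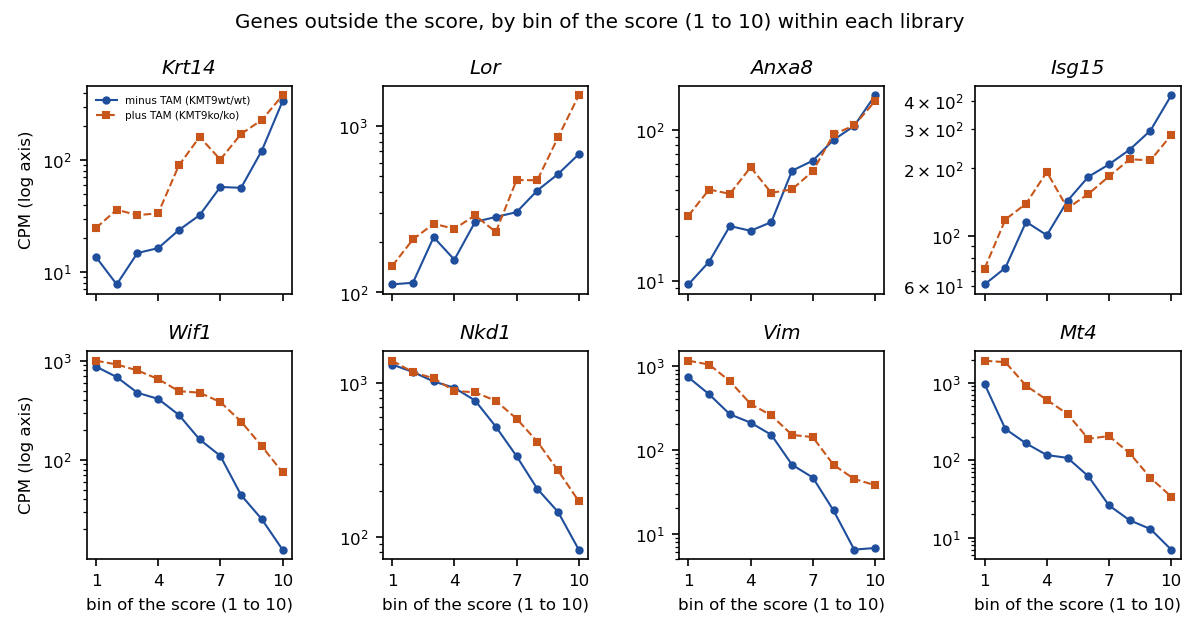
CPM (y axes, log) of 8 genes outside the score in 10 bins of the score within each library (x axes, 1 lowest, 10 highest). Krt14, Lor, Anxa8 and Isg15 stand highest, and Wif1, Nkd1 and Mt4 lowest, in the top bin of both libraries. In plus TAM the border of bins 1 and 2 falls among cells tied at a score of 0.

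High-scoring cells had more high-scoring neighbours than their share of the library in the expression of the remaining genes, although most neighbours were other cells. Among the 15 nearest neighbours of a cell, found in 30 principal components built without the score genes, a high-scoring minus TAM cell had a median of 7 high-scoring cells and another cell 0, where 2.03 would be the library's average share. In 170 of 363 (46.8%) 8 or more neighbours were high-scoring, against 77 of 2324 other cells (3.31%). In plus TAM the median was 2 against 0 (average share 0.560), and 4 of 56 (7.14%) against 3 of 1443 (0.208%) had 8 or more. High-scoring cells were also compared with 3 other groups of cells, each taken as the top 10% of kept cells for its own genes. Of the high-scoring cells 36 in minus TAM (9.92%) and 29 in plus TAM (51.8%) were also among the squamous-like cells scored on Tmprss11d, Asprv1 and Krt16, which held 139 and 280 cells (25.9% and 10.4% of them). For Cav1, Cav2 and Ctgf the overlap was 74 (20.4% of high-scoring, 32.0% of that group) and 11 cells (19.6% and 5.85%). For the colonocyte genes Clca4a, Muc3 and Car1, a group of 207 and 212 cells, it was 22 (6.06%) and 7 cells (12.5%). Of all kept cells the 3 groups made up, in that order, 5.17%, 8.60% and 7.70% in minus TAM. In plus TAM they made up 18.7%, 12.5% and 14.1%. The colonocyte overlap was thus below that group's share of all kept cells in both libraries, and the other overlaps were above it. High-scoring minus TAM cells outside the Tmprss11d group had Krt14 at 249 CPM, Gabrp at 88.7 CPM and Nkd1 at 101 CPM, and the cells of that group outside the high-scoring class had 99.8, 19.4 and 628 CPM. In minus TAM, the cells of the Cav1, Cav2 and Ctgf group outside the high-scoring class had Nkd1 at 43.6 CPM, Wif1 at 16.9 CPM, Vim at 8.25 CPM and Mt4 at 6.68 CPM, against 125, 17.5, 7.27 and 7.73 CPM in high-scoring cells outside that group. In the same comparison Krt4 was 809 against 2000.3 CPM, Krt14 124 against 253 CPM and Lor 1358 against 537 CPM. Low Wif1, Nkd1 and Vim were thus shared with the Cav1, Cav2 and Ctgf cells, and none of these differences was tested.

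Markers of immune, fibroblast and endothelial cells were low. Ptprc, the pan-leukocyte gene Cd45, stood at 0.175 CPM in minus TAM and at 0 in plus TAM high-scoring cells. Summed over the list, immune markers stood at 8.39 CPM in high-scoring and 11.7 CPM in other minus TAM cells, with 10 of 16 at 0 in the former, and at 31.9 against 16 CPM in plus TAM, with 13 of 16 at 0. Of that plus TAM sum, Cd68, a lysosomal protein, gave 27.2 CPM. Fibroblast markers stood at 1.49 against 1.38 CPM and 3.40 against 2.85 CPM, with Col1a1, Col1a2, Col3a1 and Dcn at 0 in high-scoring cells. Endothelial markers stood at 6.55 against 13.3 CPM and 11.6 against 22.5 CPM. Epithelial genes were present throughout: Epcam stood at 746 against 928 CPM and 807 against 959 CPM. The goblet mucin Muc2 had no UMI in high-scoring cells of either library. This allows at most 0.262 CPM in minus TAM and 2.04 CPM in plus TAM. The summed goblet list, however, stood at 97.5 against 160 CPM in minus TAM and 136 against 105 CPM in plus TAM. For the tuft list the sums were 122 against 96.3 CPM and 59.1 against 41.4 CPM, and for the Paneth list 285 against 243 CPM and 620 against 478 CPM. Enteroendocrine markers summed to 17.6 against 23.4 CPM and 142 against 70.4 CPM.

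Between the libraries, the high-scoring cells differed in 881 genes that were 1.5-fold or more higher in plus TAM (12.1% of 7280) and 1655 that were lower (22.7%); among the other cells 513 (6.78% of 7565) were higher and 665 (8.79%) lower. The plus TAM side held 56 cells, so its ratios have wider counting error, and the median log2 ratio of all genes was −0.16 among high-scoring and −0.06 among other cells. Of the stratified keratins 8 of 9 were higher (median 0.90, other cells 3 of 6, median 0.81). Of the cornified envelope genes 8 of 12 were higher (median 1.27, other cells 6 of 10, median 0.69). The choice of cells bears on such genes: Krt6a made up 33.5% of the score in plus TAM and 15.9% in minus TAM. Of the high-scoring cells 51.8% in plus TAM and 9.92% in minus TAM were also in the Tmprss11d, Asprv1 and Krt16 group. How much of these ratios comes with that choice was not tested. Krt15, a basal keratin, stood at 6.29 CPM in minus TAM and 171 CPM in plus TAM high-scoring cells (log2 4.77, interval 4.38 to 5.17), and its log2 ratio among other cells was 1.48. Krt16, a keratin of activated epidermis, stood at 15.1 and 127 CPM (log2 3.07, other cells 1.89). Asprv1, an epidermal protease, stood at 50.1 and 540 CPM (log2 3.43, other cells 1.94), and Psca, a surface antigen, at 13.5 and 116 CPM (log2 3.09, other cells 1.77). These genes were also higher in plus TAM among the cells outside the class. Ccl5, a chemokine, stood at 5.68 and 122 CPM (log2 4.43, other cells 3.83), and Sprr1a at 14.0 and 268 CPM (log2 4.26, other cells 4.12). Without shared barcodes Ccl5 stood at only 6.53 and 18.1 CPM (log2 1.47), and at 5.31 and 30.9 CPM in the other cells. Sprr1a then stood at 14.0 and 224 CPM (log2 3.99).

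On the lower side, Atf5, a stress-response factor, stood at 193 CPM in minus TAM and 33.3 CPM in plus TAM high-scoring cells (log2 −2.53, other cells −1.72). Ascl2, the stem cell factor of the crypt, stood at 127 and 29.2 CPM (log2 −2.12, other cells −1.58), and Cdx2 at 106 and 28.5 CPM (log2 −1.89, other cells −1.85). Lonp1, the mitochondrial protease, stood at 200 and 46.2 CPM (log2 −2.12, other cells −1.54). All 24 measured S phase genes were lower (median −1.90), as were 24 of 26 among other cells (median −1.16), and the replication helicase genes Mcm5 and Mcm6 stood at 81.6 and 19.7 CPM and at 93.8 and 23.1 CPM. G2 and M phase genes were lower in 22 of 25 cases (median −1.38), against 21 of 32 among other cells (median −0.73). Ribosome biogenesis genes were lower in 18 of 22 cases (median −0.87), against 8 of 22 among other cells (median −0.50). Both classes come from the same 2 libraries, so the comparisons are set side by side and their difference was not tested.

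**Figure D5:**
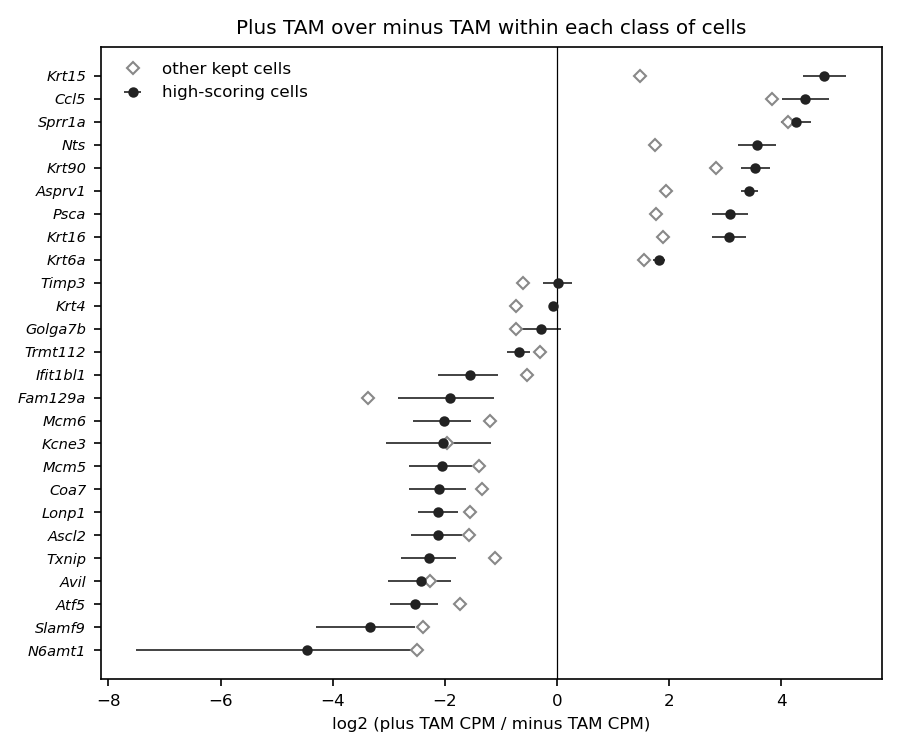
Log2 ratio of plus TAM over minus TAM CPM (x axis) for the score genes, the KMT9 subunits and the genes of most extreme ratio (y axis), in high-scoring cells (filled, with 95% counting interval) and in other kept cells (open). Krt4 and Timp3 lie at about 0 in high-scoring cells, Krt6a lies above, and Kcne3, Slamf9 and Fam129a lie below in both classes.

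Several of these values moved with the choice of score genes. The share of high-scoring cells moved too: by Krt4 and Krt6a alone it was 11.4% in minus TAM and 7.54% in plus TAM, and without them 14.6% and 1.73%. Chosen without Krt4 and Krt6a, 393 minus TAM cells were in the top 10%, 237 of them among the 363, and the log2 ratio in minus TAM was 1.45 for Krt14, −3.10 for Wif1 and −2.14 for Nkd1, but 0.04 for Mki67. Chosen by Kcne3, Slamf9 and Fam129a alone, 406 minus TAM cells were in the top 10%, 154 of them among the 363, and only 13 plus TAM cells were. Their minus TAM log2 ratios were 0.51 for Krt14, 0.65 for Gabrp, 0.68 for Isg15 and −2.74 for Wif1. Lower Wif1 thus accompanied every version of the score run in minus TAM, while the Krt14 ratio was smaller wherever the keratins were left out. The sources used here do not give whether strand entered the counting. Among the genes named, exons of Timp3, Kcne3, Krt6a, Trmt112, Tgm1, St3gal4, Cdkn1c, Prox1, Krt5, Krt7, Krt8, Krt90, Fam129b, Elf3, Bnip3, Tap1, Tap2, Atf5, Txnip, Kcnq1, Cftr, Ccnd1 and 2200002D01Rik overlap a gene on the other strand, and reads from such pairs cannot be told apart if it did not enter.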

How the data were processed

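Both matrices hold raw UMI counts per gene and barcode, deposited by the authors from 10x Chromium 3′ libraries (v2 chemistry, per the labels' protocols) and counted by Cell Ranger 3.1.0 (per the file headers) against mm10 (per the submitters' processing notes). The sources used here do not name the annotation release; the 31053 gene identifiers were located in GENCODE mouse release 21 (30934 found). The members and gene lists were chosen with earlier results of these data known. UMIs were summed over the cells of a class and library and expressed as CPM of all their UMIs. Genes with 10 CPM or more were compared by ratio at 1.5-fold, with 3 counts as the limit for 0. Intervals are exact and cover counting error only. Genes named were drawn from the score genes and the 20 largest and 15 smallest ratios in minus TAM (20 CPM or more). Also drawn on were the 4 measured genes of largest ratio in each list and the 10 genes most like the score. The 8 largest and 8 smallest plus TAM over minus TAM ratios inside the class (50 CPM or more) and 18 fixed genes completed the choice. The text names some of the list genes and most of the fixed ones. Further list members were named after their values were seen. Doublets were not removed: Scrublet (scanpy 1.11.5) marked 12 (0.447%) and 3 (0.200%) cells at its default, too few to be relied on, so the cells of highest doublet score were left out as an alternative. Summing and calling were tested on simulated counts, where 200 of 200 changed genes were recovered among 7494 with 0 false calls. That number of genes is the one measured in minus TAM. High-scoring cells held 11447719 UMIs in minus TAM and 1471801 in plus TAM. The result is therefore not carried over to plus TAM or to counts between the libraries. Promoters came from RefSeq (GRCm38.p6), where 6 of 8 score genes matched. Software was numpy 2.4.6, scipy 1.17.1, pandas 2.3.3, scikit-learn 1.9.0 and matplotlib 3.10.9.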

Additional observations from a re-analysis of the deposited data

Results flagged for a closer look

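Of the genes named, 2 stood 1.5-fold or more higher in the high-scoring cells of one library and lower in those of the other. Ifit3, an interferon-induced IFIT gene, had a log2 ratio of 1.51 in minus TAM and −2.49 in plus TAM, the latter resting on 5 UMIs in 56 cells. Ccl2, a chemokine, had a log2 ratio of 0.66 in minus TAM (21.8 against 13.8 CPM) and −0.99 in plus TAM (29.9 against 59.5 CPM). With 1 library per group the difference between the libraries was not tested. Over all genes measured in both libraries, 6 of 7116 (0.0843%) went opposite ways in this sense.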

How the results depend on the processing

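With 1 library per group there is no replicate check, and the 56 plus TAM cells limit every value of that class. No paired analysis was possible because each group has 1 deposited library. The share of high-scoring plus TAM cells (3.74%) was 4.91% with no filter on cells, 5.05% with cells thinned to 5000 UMIs and 5.07% ranked by summed CPM. The count of higher genes in minus TAM (226) was 78 at 50 CPM or more, 1820 with no low filter and 52 at 2-fold, and that of lower genes (394) was 643 at 5 CPM, 100 at 50 CPM, 2328 with no low filter, 135 at 2-fold and 666 within cells of few S and G2/M transcripts. In plus TAM the higher count (370) was 585 with the top 5%, 119 at 50 CPM, 3718 with no low filter and 108 at 2-fold. The lower count (1010) was 1569 with the top 5%, 588 with the top 20% and also with the top 10% taken within each library, 185 at 50 CPM, 2365 with no low filter and 384 at 2-fold. Between libraries inside the class, the higher count (881) was 254 at 50 CPM, 2876 with no low filter and 370 at 2-fold, and the lower count (1655) was 572, 2902 and 579. The cause of these moves other than fewer or more genes tested was not tested.

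These log2 ratios changed sign in minus TAM: Car1 0.94 (top 20%) and 0.97 (score without Krt4 and Krt6a), Krt90 −0.16 (top 20%), −0.46 (few S and G2/M), −0.44 (Kcne3, Slamf9 and Fam129a alone) and −0.071 (Krt4 and Krt6a alone), Ifit3 −0.094 (Krt4 and Krt6a alone), and, without Krt4 and Krt6a and then by Kcne3, Slamf9 and Fam129a alone, Mki67 0.036 and 0.14 and Cdca3 0.18 and 0.18. In plus TAM without Krt4 and Krt6a they were St3gal4 −0.49, Grhl3 −0.18, Bnip3 0.086, Slc16a3 0.30, Car1 2.17 and Ifit3 2.60. Car1 was also 1.83 (no shared barcodes), 1.40 (thinned), 0.38 (top 20%) and 0.29 (within library), Krt17 −0.74 (top 5%), and Ifit3 0.82 (thinned) and 0.13 (Krt4 and Krt6a alone). With few S and G2/M transcripts Mki67 was 0.082, Mcm5 1.14 and Mcm6 0.33. Ccl2 was 0.21 (thinned), 0.011 (top 5%), 1.21 (top 20%), 1.23 (within library) and 1.30 (Krt4 and Krt6a alone), and Txnip 0.22 (no cell filter), 0.12 (thinned), 0.37 (top 20%), 0.36 (within library) and 0.33 (Krt4 and Krt6a alone). No list median past 1.5-fold changed sign. The scores built from fewer genes were added after seeing the data.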

Other observations

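For the lists of this section, the shares of all measured genes were 3.02% higher and 5.26% lower in minus TAM (median log2 −0.00). In plus TAM they were 4.91% higher and 13.4% lower (median −0.11). Immediate early genes, which growth factors and stress switch on within minutes, were lower in 5 of 17 cases in minus TAM high-scoring cells (median −0.32). In plus TAM 4 of 19 were lower, with a median (−0.13) close to that of all genes. None was 1.5-fold or more higher in either library. Nr4a1, a nuclear receptor of that response, stood at 39.7 CPM in high-scoring and 155 CPM in other minus TAM cells, and at 132 and 204 CPM in plus TAM. Of the glycolysis and hypoxia genes, 4 of 24 were lower and 1 higher in minus TAM (median −0.17) and 5 of 25 were lower in plus TAM (median −0.22). Bnip3, a mitophagy receptor that hypoxia induces, stood at 37.6 against 107 CPM and 60.5 against 162 CPM, and Slc16a3, a lactate exporter, at 22.1 against 56.0 CPM and 34.7 against 69.8 CPM. Etv5, a factor induced by MAP kinase signalling, stood at 2.71 against 15.1 CPM in minus TAM. Hes1, the Notch target, stood at 343 against 595 CPM in minus TAM and 806 against 1041 CPM in plus TAM.

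Detoxification genes went both ways. Gsto1, a glutathione transferase, stood at 750 against 464 CPM in minus TAM and 817 against 426 CPM in plus TAM, while Gstm1 stood at 24.6 against 69.9 CPM and 20.4 against 69.6 CPM. Of that list 2 of 15 were higher and 1 lower in minus TAM (median 0.07), and 8 of 18 were higher and 3 lower in plus TAM (median 0.15). NF-kB targets and chemokines were higher in 4 of 19 cases in minus TAM (median 0.16), and 4 of 22 were higher and 4 lower in plus TAM (median −0.03). Ribosome biogenesis genes passed 1.5-fold in 0 of 22 and 0 of 21 cases, with medians of 0.25 and −0.11. Among colonocyte genes, Ceacam1, an adhesion molecule of mature cells, stood at 277 against 121 CPM and 312 against 106 CPM, and the list had 3 of 8 higher and 2 lower in minus TAM (median 0.12) and 5 of 12 higher and 2 lower in plus TAM (median 0.51).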
